A study of Homo sapiens with 21 samples.

Results

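Cells exposed to hydrogen peroxide were followed here through the second part of the time course, from 8 h to 24 h after the start of treatment. The comparison sets the 3 libraries taken at 24 h against the 3 taken at 8 h and covers every gene whose value varied, which is 19694 of the 23368 genes listed. The cells were hTERT-HPNE, an established human pancreatic line that expresses nestin, was immortalised with telomerase and is not transformed. Both groups received 300 µM H2O2 in fresh growth medium, which also contained epidermal growth factor and puromycin. The series holds 21 polyadenylated RNA libraries in 7 groups of 3 biological replicates, which are untreated cells collected at time 0 and cells collected 4 h, 8 h and 24 h after H2O2 or after 400 ng/ml neocarzinostatin (NCS), a drug that breaks DNA. No untreated culture of 8 h or 24 h was analysed here, so time in fresh medium and time after H2O2 cannot be told apart in this comparison. The NCS groups of the same times, which share no library with those of H2O2, are given beside it. RNA came from whole cultures, in which fewer cells of a type and less RNA per cell cannot be told apart.

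Hydrogen peroxide oxidises proteins and DNA, and cells answer it through several transcription programmes. NRF2 drives antioxidant genes, heat shock factors drive chaperones, ATF4 and the sensors of the endoplasmic reticulum (ER) drive the integrated stress and unfolded protein responses, and AP-1 genes such as FOS and FOSB respond within the first hours. Damage to DNA activates p53, whose target CDKN1A encodes the inhibitor p21, and through the retinoblastoma-family proteins this inhibitor silences genes that E2F and the MuvB complexes switch on for DNA replication and mitosis.

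The values were regularised log2 counts (rLog), so a difference of 1 is a doubling on this shrunken scale, and rLog pulls the differences of weakly expressed genes towards 0. The depth of each library is unknown because counts were not used here. The library medians lay between 7.14 and 7.19. Of the markers of the labelled line, NES averaged 11.87 at 8 h and 11.83 at 24 h and VIM 17.08 and 16.79, and S100A4 was lowest at 5.15 at 8 h. Among markers of duct, acinar, endocrine, immune and endothelial cells, EPCAM (-1.77 at 8 h), KRT19 (0.62) and PTPRC (0.93) were near the bottom of the scale, but the keratins KRT18 (11.52) and KRT8 (7.99), CD68 (10.03) and TEK (8.31) were above the library medians. Replicate 2 of the 8 h group stood apart from its partners. Its Euclidean distance over all genes was 14.7 to replicate 1 and 15.1 to replicate 3, against 11.4 between those. It also lay nearer to the untreated mean, at 23.9 against 33.5 and 33.7. Each list was therefore also counted without it, and that count is given where it differed by over 1.5 times or a list that had moved as a whole lost a member.

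From 8 h to 24 h, 74 genes fell and 8 rose by more than 1 on the log2 scale at an adjusted p below 0.05 (limma, Benjamini-Hochberg), which is 0.376% and 0.0406% of the genes tested. Without the 8 h replicate that stood apart, 61 fell and 12 rose, and 59 and 8 of these were among the genes called with it. Above a difference of 0.58 the counts were 373 lower (1.89%) and 162 higher (0.823%). At the adjusted p alone 4569 genes were lower (23.2%) and 3816 higher (19.4%), and these numbers depended on the scaling, since aligning the library medians gave 7354 lower and 3536 higher. The median difference of all genes was -0.001. List counts below are at the adjusted p alone, so the 23.2% and 19.4% are the shares to set beside them. Among genes averaging at least 7 over all libraries that span 30 to 100 kb, 28.8% were higher and 38.5% lower. The replicates of the 2 times did not overlap for 48.5% of genes. With 3 libraries a side, an exact permutation test cannot go below p = 0.1, so all tests come from the fit across genes.

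**Figure D1:**
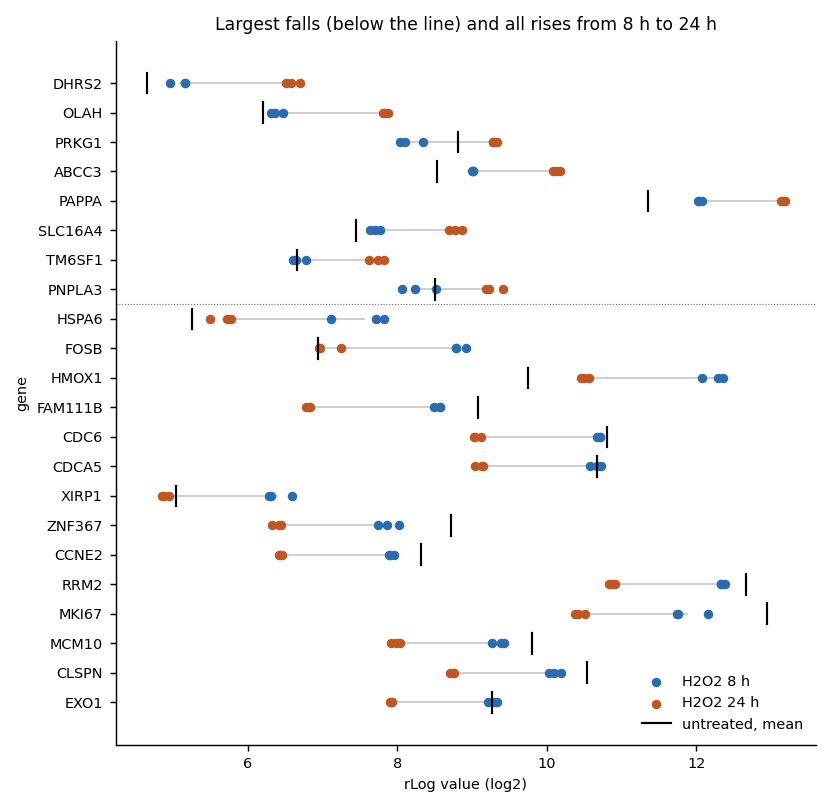
rLog values (log2) in each H2O2 library at 8 h (blue) and 24 h (orange) for 14 of the largest falls and all 8 rises, with the untreated mean as a black bar and a grey line joining the 2 group means. HSPA6, FOSB, HMOX1 and XIRP1 stand above the untreated mean at 8 h and come down towards it, whereas the other 10 falls start near or below it and go further down.

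These 14 falls were of 2 kinds. HSPA6, FOSB, HMOX1 and XIRP1 had been above the untreated mean at 8 h, by 1.35 to 2.50. The other 10 (FAM111B, CDC6, CDCA5, ZNF367, CCNE2, RRM2, MKI67, MCM10, CLSPN and EXO1) act in DNA replication, repair or cell division or, for FAM111B and ZNF367, have been linked to it. At 8 h they lay between 1.06 below and 0.01 above the untreated mean. Replicates of the 2 times do not overlap in the plot of values by library, since genes were chosen for that.

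Genes of DNA replication fell together. All 36 measured members of the replication licensing and fork list were lower at 24 h, with a median difference of -0.84, and 12 of them fell by more than 1. CDC6, which loads the MCM helicase at origins, measured 10.71, 10.67 and 10.71 in the 8 h libraries and 9.12, 9.02 and 9.04 in the 24 h libraries. It fell by 1.63 (SE 0.03, adjusted p = 4.9e-16, limma), which is 3.10-fold on this scale, and its 8 h level was still close to the untreated mean of 10.81. CDT1, its partner in loading, went from 9.90, 9.90 and 9.95 to 8.62, 8.60 and 8.50, again from a level near the untreated 9.99. MCM10, needed for fork activation, fell by 1.38 and CLSPN, the checkpoint adaptor claspin, by 1.38. Leaving out the 8 h replicate that stood apart left all 36 lower.

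Most genes of nucleotide supply also fell, while the early cyclins and CDK inhibitors moved in both directions. Of 10 genes of dNTP supply 8 fell and 1 rose. RRM2, the S-phase subunit of ribonucleotide reductase, was at 12.33, 12.38 and 12.33 at 8 h and 10.92, 10.83 and 10.88 at 24 h, a fall of 1.47 (adjusted p = 3.5e-17, limma). TYMS fell by 1.22 and TK1 by 0.87. The gene that rose was RRM2B, the p53-dependent subunit of the same reductase, by 0.32 (10.48, 10.22 and 10.43, then 10.68, 10.70 and 10.70). Among 15 G1 cyclins and CDK inhibitors 8 fell and 2 rose, with a median of -0.12. CCNE2, cyclin E2, went from 7.89, 7.89 and 7.95 to 6.45, 6.42 and 6.43, whereas CDKN2B, which encodes the CDK4 and CDK6 inhibitor p15, rose by 0.79 from 8.94, 8.92 and 8.79 to 9.65, 9.69 and 9.67.

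Transcription regulators of these programmes, repressors among them, were themselves mostly lower. Of 16 cell-cycle transcription regulators 14 fell and 1 rose, with a median of -0.47. MYBL2 went from 10.70, 10.69 and 10.70 to 9.42, 9.37 and 9.42. E2F1 fell by 1.08, FOXM1, the activator of mitotic genes, by 1.03 and E2F8, a repressor, by 0.79. The gene that rose, named after its values were seen, was RBL2 (0.43), which encodes the retinoblastoma-family protein p130 of quiescent cells. All 19 genes of homologous recombination and Fanconi repair fell, with a median of -0.78, and 18 did without the 8 h replicate that stood apart. EXO1, an end-resection nuclease, went from 9.22, 9.29 and 9.33 to 7.93, 7.90 and 7.92. RAD54L fell by 1.14 and the helicase BLM by 1.07.

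Mitotic genes fell from a level that was already below that of untreated cells. The medians were -0.86 for 26 kinases, cyclins and anaphase factors, -0.77 for 26 kinetochore and checkpoint genes, -0.82 for 28 spindle and cytokinesis genes and -0.74 for 17 genes of chromosome condensation and the lamina. Every measured member of these 4 lists was lower at 24 h. Without the 8 h replicate that stood apart, 27 of the 28 spindle genes passed and the other lists kept all members. At 8 h their medians already lay 0.81, 0.70, 0.87 and 0.67 below untreated, against 0.36 for replication. At 24 h the medians were 1.60, 1.45, 1.73 and 1.38 below untreated, against 1.22 for replication.

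MKI67, the proliferation marker Ki-67, averaged 12.95 in untreated cells, had 8 h values of 11.75, 12.15 and 11.75 and 24 h values of 10.51, 10.38 and 10.42. KIF20A, a kinesin of cytokinesis, went from 9.97, 10.45 and 10.00 to 9.04, 8.88 and 8.82. PLK1, polo-like kinase 1, was at 10.20, 10.84 and 10.33 and then at 9.59, 9.38 and 9.42, which is a fall of 0.99 (SE 0.11). CCNB1, cyclin B1, fell by 0.68 and AURKB, Aurora kinase B, by 1.18. For each of these 5 genes the second 8 h replicate was the highest of its group, and the 24 h replicates were all lower than any at 8 h. LMNB1, lamin B1 of the nuclear envelope, went from 9.19, 9.62 and 9.13 to 8.08, 8.09 and 8.09.

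The 6 lists of replication, repair and mitosis hold 152 genes, and all 152 were lower at 24 h than at 8 h, by 0.23 to 1.63, with replicates that did not overlap. Over all genes tested 23.2% were lower, and the replicates of 48.5% did not overlap. NCS gave the same count of lower genes, 152 of 152, between its own 8 h and 24 h libraries, against 15.0% of all genes tested.

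Promoter sequences are shown for the genes with the largest falls that hold an E2F-type motif (replication list) or both motifs marked below (mitotic lists). They come from RefSeq (GRCh38.p14) and are the 150 bases before the annotated start, 5′ to 3′ on the gene's own strand, with the motif in capitals. In the replication list the E2F-type motif TTTNNCGC, searched on both strands, is marked for CDT1 (chr16:88803639-88803788, plus strand), ORC6 (chr16:46689509-46689658, plus strand) and MCM7 (chr7:100101398-100101547, minus strand), which encode a loading factor, a subunit of the origin recognition complex and a subunit of the MCM helicase.
CDT1: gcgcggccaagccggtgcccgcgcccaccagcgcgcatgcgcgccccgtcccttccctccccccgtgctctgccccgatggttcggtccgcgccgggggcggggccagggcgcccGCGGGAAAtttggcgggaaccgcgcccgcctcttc
ORC6: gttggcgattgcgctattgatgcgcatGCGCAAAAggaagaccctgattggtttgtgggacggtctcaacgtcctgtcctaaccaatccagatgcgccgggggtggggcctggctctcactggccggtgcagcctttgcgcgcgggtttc
MCM7: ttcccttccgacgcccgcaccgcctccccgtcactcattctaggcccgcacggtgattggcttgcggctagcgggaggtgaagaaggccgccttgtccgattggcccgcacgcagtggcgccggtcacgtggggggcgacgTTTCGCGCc
In the mitotic lists the cell-cycle homology region TTTGAA (CHR) and the CCAAT box are marked for MKI67 (chr10:128126424-128126573, minus strand), PRC1 (chr15:90994536-90994685, minus strand), a spindle midzone protein, and CDCA8 (chr1:37692366-37692515, plus strand), borealin of the chromosomal passenger complex. In MKI67 and CDCA8 a CHR and a CCAAT box overlap.
MKI67: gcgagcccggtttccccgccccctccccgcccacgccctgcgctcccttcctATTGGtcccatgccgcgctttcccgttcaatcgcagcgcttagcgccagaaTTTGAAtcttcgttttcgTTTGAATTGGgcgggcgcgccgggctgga
PRC1: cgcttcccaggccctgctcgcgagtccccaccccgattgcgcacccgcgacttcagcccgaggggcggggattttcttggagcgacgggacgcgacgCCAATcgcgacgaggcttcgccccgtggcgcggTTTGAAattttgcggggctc
CDCA8: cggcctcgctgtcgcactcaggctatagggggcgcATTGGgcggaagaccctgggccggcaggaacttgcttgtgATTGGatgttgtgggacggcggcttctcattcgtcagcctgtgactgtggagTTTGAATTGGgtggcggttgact

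Over the whole table's window of 250 bases before to 50 after the start, the E2F-type motif was found in 20 of 32 promoters of the replication list (62.5%), in 12 of 83 of the mitotic lists (14.5%) and in 9.34% of the 13964 tested genes that had a promoter in the table. The CHR was found in 54 of 83 mitotic promoters (65.1%), in 0 of 32 replication promoters and in 11.1% of tested genes. The CCAAT box was found in 69.9% of mitotic and 62.5% of replication promoters, against 36.2% of tested genes. Over all 35116 promoters of the table the shares were 6.89% for the E2F-type motif, 15.2% for the CHR and 34.6% for the CCAAT box. These are matches of letters in a window and no binding was measured. The same count over the genes that fell or rose by more than 1 is void, because 58 of 74 and 5 of 8 had a promoter in the table, less than the 80% asked of a gene set here. The tested genes as a whole also lay under that share, so their percentages describe only those with a promoter.

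Most genes that were raised at 4 h of H2O2 came back down. Of the 129 genes that were higher at 4 h of H2O2 than in untreated cells by more than 1 (0.655% of genes tested, from libraries that share nothing with the 8 h and 24 h groups), 101 fell from 8 h to 24 h and 7 rose, and 9 fell by more than 1. Their median stood 0.61 above untreated at 8 h and 0.14 above at 24 h. Many of these genes were weakly expressed, with 76 of the 129 averaging below 7 over all libraries. The set was not limited to genes particular to H2O2. It held the p53 targets BTG2 and CDKN1A, which averaged 9.07 and 15.32 at 4 h of H2O2 and 9.50 and 15.70 at 4 h of NCS. Their changes from 8 h to 24 h of H2O2, -0.06 and -0.05, did not pass the test.

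HMOX1, heme oxygenase, which breaks down heme, averaged 9.74 in untreated cells and 13.18 at 4 h. It was at 12.29, 12.08 and 12.36 at 8 h and 10.46, 10.56 and 10.50 at 24 h, a fall of 1.74 (SE 0.05, adjusted p = 6.9e-14, limma) that left it above untreated. The list of NRF2 targets split, with 12 of 27 lower, 10 higher and a median of 0.01 that changed sign with the scaling of the libraries. OSGIN1 fell by 0.72, GCLM, a subunit of the enzyme that starts glutathione synthesis, by 0.70 and the exporter ABCC2 by 0.65. Named after their values were seen, SRXN1 and TXNRD1, which restore oxidised peroxiredoxin and thioredoxin, fell by 0.65 and 0.61, whereas the ferritin genes FTH1 and FTL rose by 0.33 and 0.30 and the quinone reductase NQO1 by 0.27.

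FOSB was the AP-1 gene with the largest change. It averaged 6.93 untreated and 11.81 at 4 h, measured 8.78, 8.92 and 8.79 at 8 h, and returned to 6.95, 7.24 and 6.96 by 24 h. FOS went from 6.58, 6.89 and 6.70 to 5.94, 5.92 and 5.74, below the untreated mean of 6.88, and NR4A1 fell by 0.73 to 7.92, 8.08 and 7.92 against 7.92 untreated. Of 25 immediate-early and AP-1 genes 16 fell and 1 rose. JUN, which averaged 11.30 untreated and 11.30 at 4 h, was at 11.46, 11.27 and 11.33 at 8 h and 11.01, 10.97 and 10.97 at 24 h. It fell by 0.37 with H2O2 and by 0.47 with NCS. HBEGF, a ligand of the epidermal growth factor receptor, fell by 0.86 from 11.55, 11.37 and 11.52, while the ligand genes AREG and NRG1 rose by 0.45 and 0.21.

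Chaperones of the cytosol and the ER fell. Of 21 heat shock genes 20 were lower and 1 higher, with a median of -0.21, and 18 and 0 without the 8 h replicate that stood apart. HSPA6, a strictly inducible HSP70, was at 7.83, 7.11 and 7.71 at 8 h and 5.72, 5.49 and 5.77 at 24 h, against 5.25 untreated. HSPA1B and HSPA1A fell by 0.84 and 0.60, and as these are near-identical copies that also resemble HSPA6, reads may have been split between them. HSPD1, the mitochondrial chaperonin, fell by 0.53. Of 19 genes of the unfolded protein response of the ER 17 were lower and 0 higher, with a median of -0.48. HSPA5, the ER chaperone BiP, averaged 15.01 untreated, reached 16.07, 15.86 and 16.09 at 8 h and came to 14.84, 14.82 and 14.86 by 24 h, a fall of 1.17. MANF fell by 0.87, DNAJB9 by 0.75 and PDIA4 by 0.75.

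The ER stress element begins with a CCAAT box, so the 150 bases before the start are shown for the 2 genes of this list with the largest falls that hold it, HSPA5 (chr9:125241344-125241493, minus strand) and MANF (chr3:51385141-51385290, plus strand), with CCAAT on either strand in capitals. Both hold 2 matches to CCAAT in this window. The rest of the element was not searched, so a match does not mark a whole element. In the full window, 16 of 18 promoters of the list had a match (88.9%), against the 36.2% of tested genes given above.
HSPA5: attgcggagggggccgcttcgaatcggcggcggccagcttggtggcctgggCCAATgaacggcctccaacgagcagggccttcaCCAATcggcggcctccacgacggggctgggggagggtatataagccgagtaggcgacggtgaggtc
MANF: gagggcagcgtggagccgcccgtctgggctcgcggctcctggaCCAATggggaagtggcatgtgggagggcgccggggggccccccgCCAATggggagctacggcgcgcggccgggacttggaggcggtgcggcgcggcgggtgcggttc

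The ATF4 and integrated stress response list moved in both directions, with 15 of 27 lower, 6 higher and a median of -0.19. Without the 8 h replicate that stood apart the counts were 18 and 3. ATF3 was at 10.56, 10.39 and 10.64 at 8 h and 9.30, 9.25 and 9.41 at 24 h, still above the untreated 8.21. CHAC1, which degrades glutathione, fell by 0.75 and SESN2 by 0.54. NUPR1, a stress-induced chromatin protein, rose by 0.64 from 10.41, 10.15 and 10.42 to 10.92, 11.05 and 10.93, and DDIT3, which encodes CHOP, was at 9.79, 9.53 and 9.82 and then at 9.84, 9.94 and 9.93, a rise of 0.19. The rise of DDIT3 was 0.10 and did not pass without the 8 h replicate that stood apart. The list's median above untreated was 1.10, 0.85 and 1.09 in the 8 h libraries and 0.81, 0.83 and 0.85 in the 24 h libraries, so it was near the 24 h values at 8 h in replicate 2 alone. Among 20 cytosolic tRNA synthetases, many of them ATF4 targets, 6 rose, such as WARS by 0.32, and 6 fell, such as TARS by 0.18.

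Further genes that fell had been above untreated at 8 h, and of these XIRP1, DBIL5P and COL20A1 are weakly expressed in these cells. XIRP1, an actin-binding protein of striated muscle, went from 6.28, 6.31 and 6.58 to 4.88, 4.85 and 4.94. The pseudogene DBIL5P fell by 1.13 and the collagen gene COL20A1 by 1.04. PTGS2, cyclooxygenase 2, fell by 1.16 from 9.51, 9.37 and 9.51 to 8.30, 8.29 and 8.31. It was the 1 gene of 20 in the inflammatory list past that size, and in that list 8 fell and 1 rose. SLC30A1, a zinc exporter, fell by 0.92 to 8.90, 8.90 and 8.91, and of 11 genes of its list with the metallothioneins 4 fell and 2 rose, or 1 without the 8 h replicate that stood apart.

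**Figure D2:**
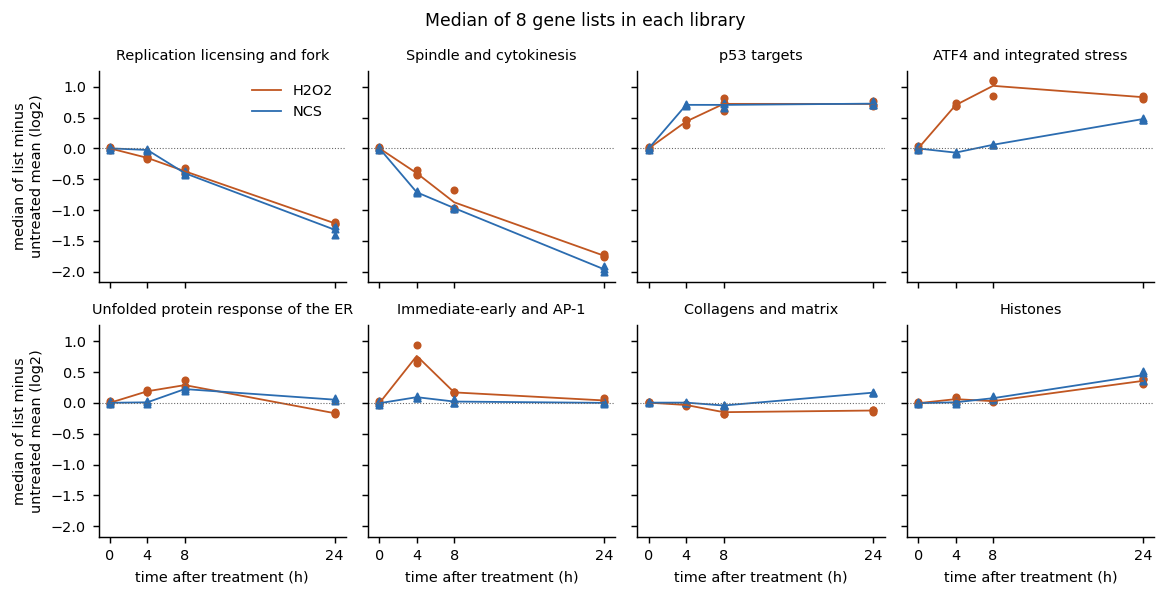
Median of 8 gene lists in each library, as the log2 difference from the untreated mean of each gene, against the hours after treatment, for H2O2 (orange circles) and NCS (blue triangles), with lines through the group means. The replication and spindle lists go down with both agents between 8 h and 24 h, the p53 list stays level, and the immediate-early and ER lists return towards 0 or below with H2O2.

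Targets of p53 moved in both directions. Of 27 targets for arrest, feedback and repair 8 rose and 9 fell, with a median of -0.05. Of all genes tested 19.4% rose and 23.2% fell at the same adjusted p. Without the 8 h replicate that stood apart 7 of the targets rose and 12 fell, with a median of -0.12. The list's median above untreated was 0.75 at 8 h and 0.72 at 24 h. CDKN1A was at 15.87, 15.44 and 15.91 at 8 h and 15.68, 15.72 and 15.67 at 24 h, against 14.12 untreated, with a difference of -0.05 (SE 0.07, adjusted p = 0.66, limma). Without the 8 h replicate that stood apart the difference was -0.20 and passed the test. BTG2, an antiproliferative factor, differed by -0.06 and GDF15, a secreted stress cytokine, by 0.27, and neither passed. GDF15 was at 12.40, 11.71 and 12.35 and then at 12.41, 12.45 and 12.40, and it passed when the first or the third 8 h replicate was left out (0.39 and 0.37). TP53I3, a quinone oxidoreductase, rose by 0.59 from 10.67, 10.77 and 10.82 to 11.30, 11.40 and 11.33, and XPC, the damage sensor of nucleotide excision repair, by 0.28. PLK2 fell by 0.56, GADD45A by 0.35, PPM1D, a phosphatase that switches p53 signalling off, by 0.40, and MDM2, the ubiquitin ligase for p53, by 0.15. The call of MDM2 was lost without replicate 1 or 3 of either time (differences of -0.08 to -0.15). It was also lost under quantile normalization (-0.08) and in a fit of only the groups compared (-0.15).

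In the list of apoptosis genes 13 of 28 fell and 4 rose. PMAIP1, which encodes the BH3-only protein NOXA, averaged 11.14 ± 0.18 (SD, n = 3) at 8 h and 10.32 ± 0.02 at 24 h, against 10.10 untreated, a fall of 0.82 (SE 0.07). BBC3, which encodes PUMA, was at 8.64, 8.36 and 8.68 and then at 8.58, 8.49 and 8.54 and did not pass the test (adjusted p = 0.87, limma). The death receptor FAS fell by 0.35, whereas the initiator CASP9 rose by 0.30. PIDD, with a difference of -0.09, did not pass, but it did without the 8 h replicate that stood apart (-0.20).

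Of the 8 genes that rose by more than 1, 0 belong to any of the 37 lists, so they are described one by one. DHRS2, a short-chain reductase, averaged 4.65 untreated, was at 5.15, 4.96 and 5.15 at 8 h and 6.51, 6.70 and 6.58 at 24 h, a rise of 1.51 (SE 0.09, adjusted p = 3.9e-10, limma), or 2.84-fold. OLAH, a thioesterase that releases medium-chain fatty acids, went from 6.36, 6.46 and 6.31 to 7.83, 7.80 and 7.88. PRKG1, the cGMP-dependent protein kinase, was at 8.03, 8.34 and 8.10 and then at 9.27, 9.34 and 9.28, which took it from below to above the untreated 8.81. ABCC3, an exporter of organic anions, rose by 1.12 to 10.09, 10.17 and 10.12. PAPPA, a secreted protease that cleaves IGF-binding proteins, was the most highly expressed of the 8 and went from 12.08, 12.03 and 12.04 to 13.13, 13.17 and 13.18, against 11.36 untreated. SLC16A4, of the monocarboxylate transporter family, rose by 1.08, the membrane protein gene TM6SF1 by 1.05 and PNPLA3, a lipid-droplet lipase, by 1.00. For all 8 the 24 h replicates were above every 8 h replicate, which choosing genes by a large rise favours. Over all genes tested the replicates of 48.5% did not overlap, in either direction.

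Smaller rises formed groups. Of 27 genes of collagens and extracellular matrix 18 rose and 3 fell, with a median of 0.16. With NCS 19 rose and 3 fell, with a median of 0.20. Under H2O2 the median of this list against untreated was -0.12 at both 8 h and 24 h. COL6A3 rose by 0.58 from 16.34, 16.42 and 16.39 to 16.92, 16.97 and 16.99, TGFBI by 0.49, THBS2 by 0.49 and FBN1, fibrillin 1, by 0.46. FBN1 had been at 15.11, 15.36 and 15.12 at 8 h, below the untreated 15.69, and returned to 15.64, 15.66 and 15.67. Of 22 genes of autophagy and the lysosome 14 rose and 1 fell, with CTSB, cathepsin B, up by 0.39, CTSD by 0.35, WIPI1 by 0.39 and TFEB, a regulator of lysosomal genes, by 0.31. With NCS 17 rose and 0 fell, and the medians were 0.14 with H2O2 and 0.16 with NCS. Of 12 measured histone genes 8 rose and 0 fell with H2O2, and 10 and 0 with NCS (medians of 0.33 and 0.41). H1F0, a linker histone of non-dividing cells, went from 10.95, 10.98 and 10.92 to 11.70, 11.75 and 11.75, and HIST1H2AC rose by 0.59. The rLog table comes from a polyadenylated library protocol, which captures mainly the histone transcripts that carry a poly(A) tail.

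Of 21 measured secreted factors linked to senescence 10 rose and 5 fell. SERPINE2, a protease inhibitor, rose by 0.83 to 10.75, 10.71 and 10.77 and IGFBP4 by 0.43, whereas IGFBP5 fell by 0.45. TGFBR2, the type II receptor for TGF-beta, rose by 0.63 and its ligand TGFB2 by 0.41, in a list of 16 BMP and TGF-beta genes with 4 higher and 7 lower. TXNIP, which inhibits thioredoxin and glucose uptake, was at 9.85, 10.09 and 9.72 at 8 h, below the untreated 10.33, and at 10.82, 10.77 and 10.84 at 24 h, a rise of 0.93. Among the 14 genes listed with it 6 rose and 3 fell. Of 18 clock genes 8 rose and 1 fell, with BHLHE41 up by 0.43 and NR1D2 down by 0.34, and 2 fell without the 8 h replicate that stood apart. Of 24 interferon-stimulated genes 7 rose and 2 fell, against 19.4% and 23.2% of all genes tested, with ISG15 up by 0.31. Without the 8 h replicate that stood apart 6 rose and 4 fell. MALAT1, a nuclear long noncoding RNA, rose by 0.71 to 11.18, 11.25 and 11.09, while the snoRNA host SNHG1 fell by 0.59.

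**Figure D3:**
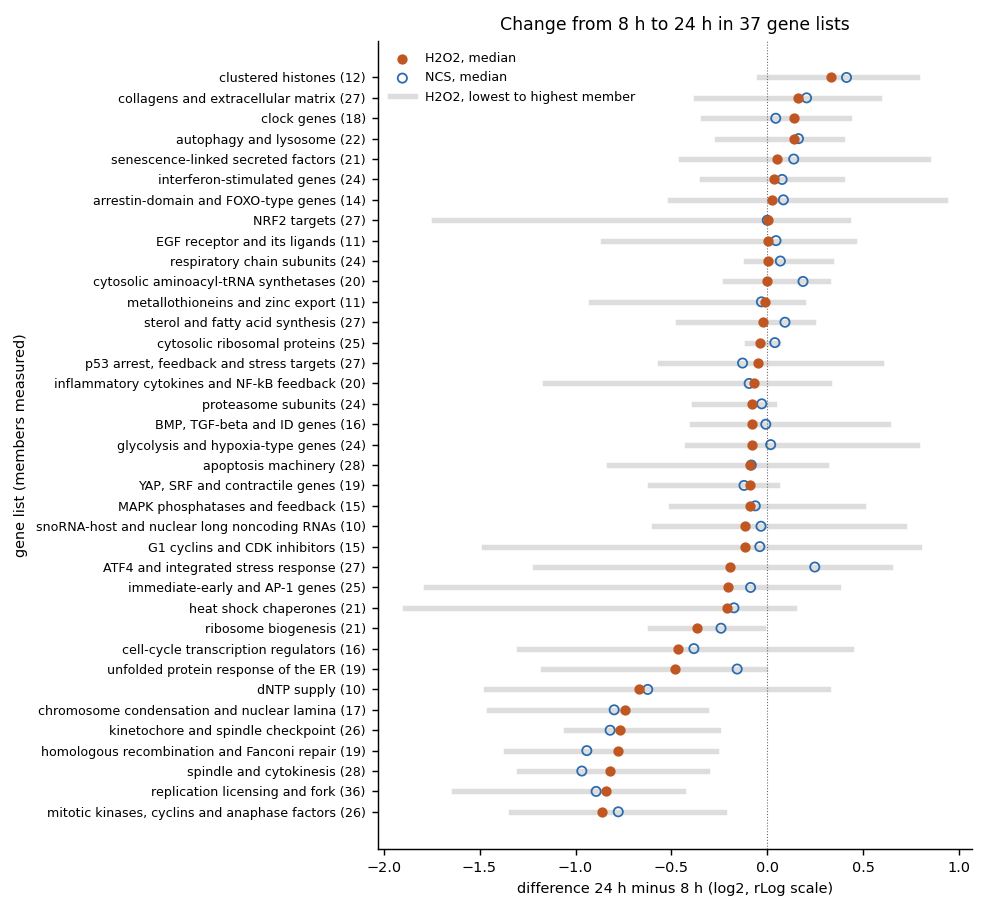
Median difference between 24 h and 8 h of H2O2 (log2, rLog scale, filled circles) for the 37 gene lists, with the number of measured members, the range from the lowest to the highest member as a grey bar, and the median under NCS as an open circle. The cell-division lists lie between -0.74 and -0.86, the ER list at -0.48 and the histones at 0.33.

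Genes that make ribosomes fell further than those of the ribosomal proteins. Of 21 ribosome biogenesis factors 19 were lower and 0 higher, with a median of -0.37, among them NOP58 by 0.61, NCL, nucleolin, by 0.53, WDR43 by 0.52 and NOP56 by 0.50. They also fell with NCS, where 20 were lower and 0 higher, with a median of -0.24. Of 25 cytosolic ribosomal protein genes 6 were lower and 0 higher, with differences from -0.11 to 0.05, against 23.2% lower over all genes tested. Leaving out the 8 h replicate that stood apart raised the 6 to 13. Of 24 proteasome genes 12 were lower, such as PSMD12 by 0.38, and 0 were higher. Of 24 glycolysis and hypoxia-type genes 13 fell and 2 rose, and the regulator of glycolysis PFKFB3 fell by 0.42 while its relative PFKFB4 rose by 0.78. Of 24 respiratory chain genes 5 rose and 2 fell, against 19.4% and 23.2% of all genes tested, with UQCRC1 up by 0.20. Of 27 genes of sterol and fatty acid synthesis 9 fell and 3 rose, with ACAT2 down by 0.47, and without the 8 h replicate that stood apart 8 fell and 6 rose. Of 19 YAP, SRF and contractile genes 10 fell and 1 rose, with CNN1, calponin, down by 0.61 and TAGLN by 0.35. Of 15 phosphatases and other feedback genes of the MAPK pathway 7 fell and 3 rose, with DUSP14 and DUSP5 down by 0.50 each and DUSP4 up by 0.50, and 5 rose without the 8 h replicate that stood apart. GAPDH was at 17.09, 17.07 and 17.17 at 8 h and 17.02, 17.03 and 17.05 at 24 h, a difference of -0.08 whose sign turned under quantile normalization.

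The length of the gene went with the direction of change. Genes were sorted by their span from start to end in GENCODE v29, among the 9862 of 10026 genes averaging at least 7 whose symbol had a span there. The median difference from 8 h to 24 h was -0.04 for the 1673 genes under 10 kb, -0.02 for 2826 genes of 10 to 30 kb, -0.03 for 3396 genes of 30 to 100 kb, 0.03 for 1643 genes of 100 to 300 kb and 0.20 for 324 genes over 300 kb. In the longest class 63.0% rose and 15.1% fell, and in the shortest 23.6% rose and 38.0% fell. Without the 8 h replicate that stood apart, an alternative chosen after seeing the data, the median of the longest class was 0.22. Under NCS it was 0.06.

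As a class, the longest genes lay below their untreated level at 8 h and close to it at 24 h, whereas some single genes rose above it. The median of the class lay 0.18 below untreated at 4 h, 0.18 below at 8 h and 0.02 above at 24 h. In the 8 h libraries one by one it was -0.19, -0.11 and -0.22 and in the 24 h libraries 0.02, 0.03 and 0.04, so the groups did not overlap. PRKG1 spans 1310 kb and had fallen below its untreated level at 8 h, as described above. DOCK4, an activator of Rac that spans 480.0 kb, went from 7.94, 8.28 and 7.75 to 8.96, 8.87 and 8.91, against 8.35 untreated. NLGN1, neuroligin 1, with 890.0 kb, was at 7.30, 7.64 and 7.25 and then at 7.78, 7.90 and 7.89, against 7.88 untreated. FHOD3, a formin with 482.0 kb, was at 7.21, 7.55 and 7.15 and then at 7.89, 7.96 and 7.93, against 7.40 untreated. It had not passed the test against untreated at 8 h, at -0.10, and was 0.52 above at 24 h. DOCK4 was likewise 0.57 and PRKG1 0.49 above untreated at 24 h. In DOCK4, NLGN1 and FHOD3 the second 8 h replicate was the nearest to the untreated mean. Of the 162 genes that rose by more than 0.58, 43.6% of those with a span were over 100 kb long, against 8.65% of the 373 that fell and 18.4% of all genes tested.

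**Figure D4:**
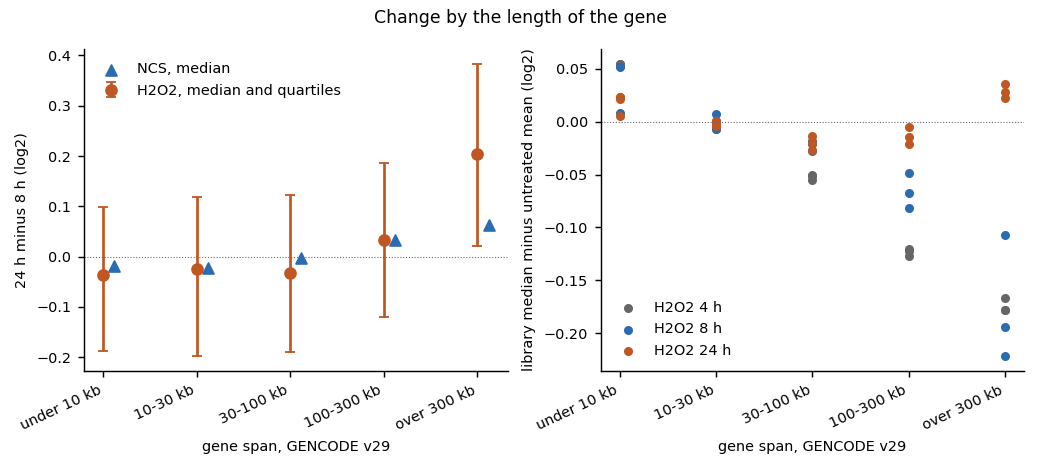
Left, median difference between 24 h and 8 h (log2) by class of gene span, with the quartiles over genes for H2O2 (orange) and the median for NCS (blue triangles). Right, median of each class in each H2O2 library as the difference from the untreated mean, where genes over 300 kb lie between -0.22 and -0.11 at 8 h and between 0.02 and 0.04 at 24 h.

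The same interval was sampled under NCS, which breaks DNA directly. Between 8 h and 24 h of NCS 71 genes fell by more than 1 (0.361%) and 2 rose (0.0102%). At the adjusted p alone 2953 fell (15.0%) and 2930 rose (14.9%). Of the 74 falls with H2O2, 40 were also called with NCS, which is 54.1% of the H2O2 list and 56.3% of the NCS list. Of the 8 rises 1 was past that size with both agents, SLC16A4, which rose by 1.13 with NCS. The other 7 also rose with NCS at an adjusted p below 0.05 (limma), by 0.26 (TM6SF1) to 0.90 (PNPLA3). For PNPLA3 the difference between the agents, 0.10, did not pass the test. Across the 19694 genes the changes under the agents correlated with Pearson's r of 0.708 and Spearman's rho of 0.548, a description over genes that share libraries and are not independent.

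The difference between the changes was then tested directly. It was below 0 at an adjusted p below 0.05 (limma) for 2322 genes (11.8%) and above 0 for 1894 (9.62%), and for 8 genes (0.0406%) it was larger than 1. Of the 7 described here, 6 fell further with H2O2. HSPA6 changed by -1.89 with H2O2 and -0.08 with NCS, FOSB by -1.78 and -0.07, HMOX1 by -1.74 and -0.18, XIRP1 by -1.50 and -0.25, COL20A1 by -1.04 and -0.01, and SERPINB10 by -0.94 and 0.17. The one that rose further with H2O2 was DHRS2, at 1.51 against 0.39. DBIL5P came next among the falls, with a difference of -0.98 between the changes, and DOCK4 among the rises, with 0.88.

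Among the 37 lists, those of the ER and of ATF4 held the largest shares of genes whose change differed between the agents. In the ER list the change was lower with H2O2 for 16 of 19 genes and higher for 0, and the medians were -0.48 and -0.16. HSPA5 changed by -1.17 with H2O2 and by -0.50 with NCS. In the ATF4 list it was lower for 21 of 27 and higher for 0, with medians of -0.19 and 0.25, and 18 of its genes rose with NCS. For the replication list the medians were -0.84 and -0.89, and the difference passed for 10 of 36 genes, 4 lower and 6 higher with H2O2. CDC6 fell further with H2O2 (-1.63 against -1.29) and so did CCNE2 (-1.48 against -0.93), whereas SKA1, a kinetochore gene, fell further with NCS, by 1.27 against 1.00. For RRM2 the changes were -1.47 and -1.48 and for MKI67 -1.45 and -1.52, and the differences of 0.01 and 0.07 did not pass the test.

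Some genes rose with H2O2 and fell with NCS. HSPA4L, of the HSP110 family, changed by 0.14 and -0.62 (its rise with H2O2 did not pass without the first or second 8 h or the second 24 h replicate, at 0.13), ATG16L2 by 0.41 and -0.37, NLGN1 by 0.46 and -0.29 and XPC by 0.28 and -0.18. Others rose with both agents but further with H2O2. TM6SF1 rose by 1.05 against 0.26 and UCN2, a secreted peptide related to corticotropin-releasing hormone, by 0.94 against 0.15. BIRC3, an inhibitor of apoptosis under NF-kB control, fell with both, by 0.37 with H2O2 and by 1.11 with NCS.

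**Figure D5:**
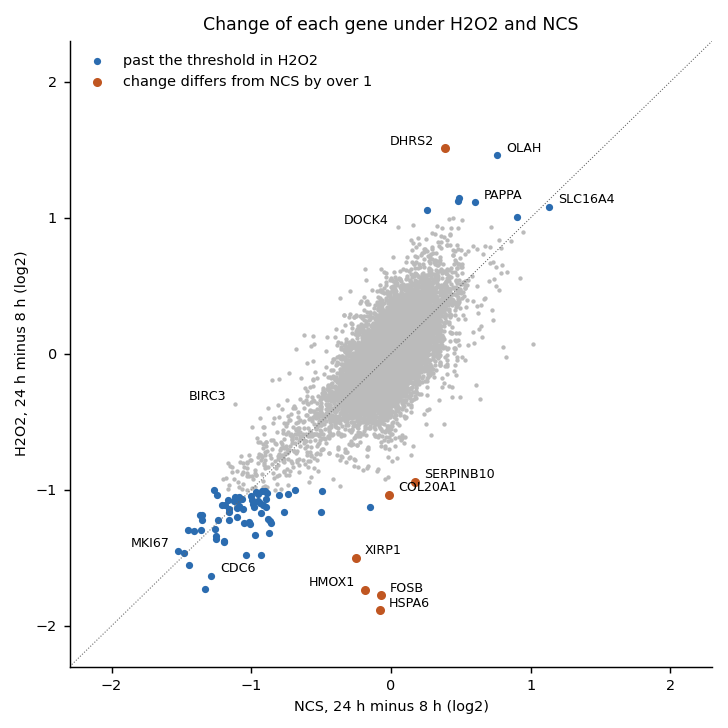
Difference between 24 h and 8 h of 19686 genes under H2O2 (vertical, log2) and NCS (horizontal, log2), with genes past the threshold in H2O2 in blue, 7 genes whose change differs by over 1 in orange and the line of equal change dotted. The cell-division genes lie near the dotted line at the lower left, and HSPA6, FOSB and HMOX1 lie straight below the centre, with changes near 0 under NCS.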

How the data were processed

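Per the labels and methods, cells were sampled in 3 biological replicates per group, stranded polyadenylated libraries were sequenced as pairs, reads were aligned with HISAT2 to hg19 and counted with HTSeq, and the authors transformed the counts with DESeq2. The deposited values are log2 (rLog) values per gene, normalised to library size and shrunken by the authors over all 21 libraries. Tool versions and the gene annotation are not given in the sources used here. Counts were not used, so depth is unknown, and its share in the spread between replicates cannot be given.

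Here the 3674 genes at 0 in every library were set aside and limma 3.58.1 (R 4.3.3, trended variance) was fitted to 19694 genes over all 7 groups, with 14 residual degrees of freedom. A single estimate of spread per gene served all groups. Distances between replicates were 11.4 to 15.1 at 8 h of H2O2 and 8.97 to 10.2 at 24 h. The SEs and adjusted p therefore do not carry the wider spread of the 8 h group. Contrasts were 24 h minus 8 h in H2O2, the same in NCS, and their difference. Genes were called at an absolute difference over 1 and a Benjamini-Hochberg adjusted p below 0.05, and list members at the adjusted p alone. The members of the 37 lists, the comparison and the tests were chosen with earlier results of these data known. Named genes were the 15 largest rises and falls with replicates that did not overlap, the 4 largest differences in each list, the 8 largest differences from NCS per direction, and 24 genes fixed by name. Genes named outside this rule are said to be. Spreadsheet dates replaced 27 gene names, which were left as they are. The fit was tested on simulated data with 19694 genes. The alternatives were other scalings, thresholds, filters, fits, sample weights, a block on replicate number and leaving out each library. Gene spans came from GENCODE v29 (GRCh38), matched by symbol, and promoters from RefSeq (GRCh38.p14). Motifs were searched on both strands. Some genes are not reported here.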

Additional observations from a re-analysis of the deposited data

Results flagged for a closer look

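For 7 genes described here the change from 8 h to 24 h differed between H2O2 and NCS by more than 1 in a test of the difference itself (adjusted p below 0.05, limma). The change with H2O2 minus that with NCS was -1.81 for HSPA6, -1.71 for FOSB, -1.55 for HMOX1, -1.25 for XIRP1, -1.12 for SERPINB10 and -1.02 for COL20A1. It was 1.12 for DHRS2. HSPA6, HMOX1, SERPINB10, COL20A1 and DHRS2 were lower in the second 8 h replicate of H2O2 than in its partners. Without that library all 7 genes stayed past the threshold, with -2.03 for HSPA6 and -1.17 for COL20A1, and 6 more passed it, which were DBIL5P, SLC6A9, CHAC1, KIAA1683, ADM2 and DOCK4. Of these, SLC6A9, KIAA1683 and ADM2 were named after their values were seen. Groups of 3 libraries are too small for a test of single outlying values.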

How the results depend on the processing

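The count of genes that rose was 162 at a threshold of 0.58 and 3816 at the adjusted p alone, and that of genes that fell 373 and 4569. The count of genes whose change differed from NCS was 106 and 4216, and it was 14 without the second 8 h replicate of H2O2, against 8 with all libraries. Leaving out 1 library in turn gave 7 to 12 rises, 61 to 85 falls and 7 to 14 differences from NCS. Aligning medians gave 7 rises and 80 falls, quantile normalization 9 and 68, a mean of at least 5 gave 8 and 73, and sample weights gave 9 and 67. Replicate numbers did not pair the libraries. Same-numbered H2O2 libraries at 8 h and 24 h had correlations of 0.0444, -0.0549 and 0.0939 in their deviations from the group means, and with the number as a block the counts were 8 rises, 74 falls and 8 differences from NCS, as without it. The difference of GAPDH turned from -0.08 to 0.11 under quantile normalization, and the cause was not tested. Of 182 named genes 164 kept their direction and their side of the threshold under all 12 alternatives for this comparison. Of the medians of 37 lists, 15 moved by less than the spread between replicates (1 SD) under all 12 alternatives and 22 moved by more under at least 1. List medians close to 0 turned sign under some scalings, which were those of the NRF2, growth factor receptor, respiratory chain, tRNA synthetase and sterol lists. Depth is unknown, and differences of weakly expressed genes are understated by the rLog scale.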
